A study of Rattus norvegicus and Mus musculus with 22 samples.

Results

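The genes described here are those that encode interleukin receptor chains. They were taken as every gene symbol of the form Il, a number and r, leaving out Il6r, Il6ra, Il7r, Il11ra1, Il27ra and Il1rn. The rule found 38 of the 33364 distinct symbols in 4 count tables, 36 in the 3 rat tables and 36 in the mouse table. Of these, 32 had a mean of at least 0.5 CPM (the count scaled to a common library total) in at least 1 group and are described. Il31ra, at 0.601 ± 0.136 CPM in IL6KO lung CD4 isolates (SD, n = 2), was the lowest member kept. The highest member left out was Il5ra, at 0.239 ± 0.414 CPM in tdTomato-negative spleen cells (SD, n = 3). The other 5 below the limit were Il1rapl1, Il1rapl2, Il20ra, the mouse gene Il11ra2, and Il36rn, which encodes a secreted antagonist and not a receptor. None of these 6 passed 0.717 CPM in any library.

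RNA was sequenced from 22 samples. The rat samples were IL6KO rats, which lack the cytokine gene Il6, and wild-type (WT) rats. All of these rats received Sugen-hypoxia, a model of pulmonary hypertension that joins an inhibitor of the VEGF receptor with low oxygen, so no untreated rat enters the comparisons. Each genotype gave 3 whole-lung libraries at day 7, 3 at day 56, and 2 libraries of CD4-positive cells isolated from day 7 lung on magnetic columns (MACS). The mouse samples were CD4-positive spleen cells of 3 mice that carried Ai14 and SM22alpha-Cre, sorted into tdTomato-positive and tdTomato-negative fractions. The SM22alpha promoter drives Cre in smooth muscle, and Ai14 turns tdTomato on for good in any cell that has had Cre activity, so the positive fraction holds T cells with a history of Cre and not cells that need express it now. The sources used here name neither strain nor age.

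Interleukin receptors work as chains that pair at the cell surface. A private chain binds 1 cytokine or a few, and a shared chain serves several. Shared chains are the common gamma chain (Il2rg) for IL-2, IL-4, IL-9, IL-15 and IL-21, and Il12rb1 for IL-12 and IL-23. Others are Il1rap for IL-1 and IL-33, Il10rb for IL-10 and IL-22, and Il17ra for several IL-17 cytokines. The gamma chain, IL-12 and IL-10 groups signal through JAK kinases and STAT factors, the IL-1 and IL-18 group through MyD88 and IRAK kinases, and the IL-17 group through Act1, the product of Traf3ip2. T cells and natural killer (NK) cells rely on the gamma chain and IL-12 groups, whereas lung epithelium and stroma carry many of the IL-17 and IL-1 receptor chains.

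A day 7 lung library held 15011692 to 23590070 counts, a day 56 lung library 14415060 to 22961232, a CD4 isolate 11477533 to 12930732 and a spleen library 8737138 to 12560401. Il6 itself had 0.438, 0.306 and 0.102 CPM in IL6KO lungs at day 7, against 0.333, 0.466 and 0.373 CPM in WT lungs. At day 56 it had 0, 0.118 and 0.151 CPM in IL6KO lungs, against 0.311, 0.261 and 0.347 CPM in WT lungs, and in the isolates 0.672 and 1.48 CPM in IL6KO rats, against 4.11 and 1.55 CPM in WT rats. These are few counts and which part of the gene was deleted is not known here, so Il6 is a weak check of the genotype labels. The CD4 isolates held the T cell markers Cd3e, Cd3d, Cd3g, Cd247, Cd4 and Cd5 at a summed 1999 to 2306 CPM, against 35.4 to 56.4 CPM in day 7 lung. The sorted spleen cells held the same list at 2676 to 3055 CPM. The isolates also held macrophage markers (at least 6 of 7 above 0, Marco at 0 in both WT isolates) at a summed 1882 to 3566 CPM, against 765 to 947 CPM in day 7 lung. Rat macrophages and monocytes carry CD4 as well, so these libraries are called CD4 isolates and not T cells. 1 WT library of day 56 lung, replicate 3, stood apart from the other 2 WT libraries on the first principal component, at 18.3 against -45.3 and -34.0, and on the side of the IL6KO libraries (16.9 to 22.0). In spleen, the tdTomato-positive library of mouse 2 stood apart at 48.1, against -22.7 to 7.09 for the other 5.

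The receptor genes divided sharply between the CD4 isolates and the whole lung at day 7. Chains of the lymphocyte groups were far higher in the isolates, and most IL-17 receptor chains were far lower there. In IL6KO rats 24 of 30 tested members differed, 15 higher and 9 lower in the isolates, where 79.5% of all genes tested did (36.4% higher and 43.2% lower). In WT rats 27 of 30 differed, 17 higher and 10 lower, where 81.4% of all genes did (37.7% higher and 43.6% lower). The count of differences is thus that of any genes, and what stands out is their direction and size: the members' median log2 fold change was 1.05 in IL6KO and 1.42 in WT rats, beside -0.12 over all genes tested in either genotype. Tests here and below are the quasi-likelihood F test of edgeR, with p adjusted across every gene tested by the method of Benjamini and Hochberg, and a gene is called at an adjusted p under 0.05.

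All 7 gamma chain group members were higher in the isolates of both genotypes. Il2ra, the high-affinity alpha chain of the IL-2 receptor that marks activated and regulatory T cells, had 95.8 and 106 CPM in IL6KO isolates, 156 and 169 CPM in WT isolates, and 3.42 to 4.22 CPM in the 6 lung libraries. Its log2 fold changes over lung were 4.81 in IL6KO and 5.79 in WT rats (SE 0.0935 and 0.0956, adjusted p = 2.71e-12 and 3.07e-12). Il21r, the receptor of the follicular helper cytokine IL-21, had 185 to 247 CPM in the isolates and 5.60 to 8.82 CPM in lung. Il2rg, the shared chain, had 447 to 521 CPM in the isolates and 68.5 to 94.4 CPM in lung, and Il2rb, the shared beta chain of IL-2 and IL-15, had 139 to 195 CPM in the isolates and 14.3 to 41.3 CPM in lung. Il4r, the IL-4 and IL-13 receptor chain, reached 816 to 1105 CPM in the isolates against 158 to 199 CPM in lung. Il9r had 9.51 to 18.8 CPM in the isolates and 0.684 to 2.56 CPM in lung, and Il15ra, which presents IL-15 to neighbouring cells, had 2.31 to 7.48 CPM in the isolates and 1.24 to 2.74 CPM in lung. No library of the isolates overlapped the lung libraries of its own genotype for any gene of this group. The share of all genes without such overlap was not counted, so this lack of overlap is not read as particular to them.

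The IL-12 and IL-23 receptor chains were higher too. Il12rb1 had 8.63 to 12.8 CPM in the isolates and 0.466 to 1.18 CPM in lung. Il23r, which marks cells of the IL-17 lineage, had 1.26 to 3.26 CPM in the isolates and 0.0511 to 0.435 CPM in lung. Il12rb2, the signalling chain that equips type 1 T cells and NK cells for IL-12, was not called in IL6KO rats (log2 fold change 0.41, SE 0.308, adjusted p = 0.240). It was higher in the isolates of WT rats (2.83, SE 0.306, adjusted p = 2.68e-06).

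The IL-1 and IL-18 receptor group split. Il18r1 and Il18rap, the paired chains of the IL-18 receptor, had 42.0 to 61.2 and 43.4 to 81.4 CPM in the isolates, against 7.38 to 11.98 and 4.33 to 11.1 CPM in lung, and were higher by log2 2.31 and 2.37 in IL6KO rats and by 3.07 and 4.001 in WT rats. The decoy receptor Il1r2 had 90.1 to 122 CPM in the isolates and 5.21 to 13.4 CPM in lung, and the IL-33 receptor Il1rl1 had 16.7 to 27.8 CPM against 6.91 to 10.5 CPM. The summed neutrophil markers were also higher in the isolates, at 391 to 1211 CPM against 35.3 to 59.8 CPM in lung, and neutrophils are known for Il1r2; their part in these values was not tested. Il1r1, the signalling IL-1 receptor, went the other way, with 5.71 to 13.5 CPM in the isolates and 117 to 139 CPM in lung. The IL-36 receptor Il1rl2 was lower as well, with 1.43 to 2.88 CPM in the isolates and 7.21 to 12.4 CPM in lung (log2 fold change -1.82 in IL6KO and -1.79 in WT rats). Il1rap, the chain these receptors share, hardly moved, with 11.2 to 16.1 CPM in the isolates and 16.3 to 21.8 CPM in lung, and was called lower in WT rats alone (-0.41, adjusted p = 0.00899), a call lost without the first WT isolate (adjusted p = 0.136).

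Within the IL-17 receptor group, 1 chain stood against the other 4. Il17ra, the shared chain, had 352 to 778 CPM in the isolates and 150 to 181 CPM in lung. Il17rd had at most 0.349 CPM in any isolate and 10.05 to 15.02 CPM in lung (log2 fold change -6.02 in IL6KO and -5.52 in WT rats, SE 0.480 and 0.467). Il17rc, the partner of Il17ra for IL-17A and IL-17F, had 0.309 to 0.943 CPM in the isolates and 17.0 to 21.1 CPM in lung. Il17re, a receptor of epithelial cells for IL-17C, had 1.51 to 1.92 CPM against 21.7 to 30.0 CPM, and Il17rb, the IL-25 receptor, had 0.168 to 0.928 CPM against 1.32 to 3.30 CPM. The Il17rb call in WT rats was lost without the first WT isolate (adjusted p = 0.133). The isolates thus held RNA of the shared chain with little of its partners. The summed epithelial markers were at 613 to 2575 CPM in the isolates and 20494 to 26257 CPM in day 7 lung, and those of endothelium at 110 to 133 CPM against 2553 to 2884 CPM. In such bulk samples fewer cells of a type and less RNA per cell cannot be told apart.

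Among the IL-10 and IL-22 receptors, Il10ra, the private IL-10 chain of leukocytes, had 163 to 217 CPM in the isolates and 10.7 to 16.5 CPM in lung. Il10rb, its widely expressed partner, had 38.1 to 41.7 CPM against 46.2 to 51.8 CPM and was called in neither genotype. Its log2 fold changes, which also scale between libraries, were -0.10 in IL6KO and 0.02 in WT rats. Il20rb and Il22ra1, chains of epithelial receptors, had 1.01 to 3.05 and 0.168 to 0.261 CPM in the isolates, against 8.06 to 10.6 and 0.593 to 0.995 CPM in lung, and were lower (log2 fold changes -1.82 and -1.82 in IL6KO, -2.46 and -1.68 in WT rats), though Il22ra1 lost its call without the first isolate of either genotype (adjusted p = 0.0632 in IL6KO and 0.0698 in WT rats). Il22ra2, a soluble binding protein for IL-22, had 1.03 to 2.86 CPM in the isolates and 1.02 to 1.74 CPM in lung and was called higher in WT rats alone (1.05, adjusted p = 0.0269), and that call was lost without the second WT isolate (0.18, adjusted p = 0.727) and without WT lung 2 or 3 (adjusted p = 0.0988 and 0.0536). Il3ra, the IL-3 receptor chain, was called in neither genotype. Il31ra, at 0.343 to 0.697 CPM in the isolates and at most 0.127 CPM in lung, did not pass the filter on low counts of the main fit. In edgeR without that filter it was called higher in the isolates (3.45 in IL6KO and 2.54 in WT rats, adjusted p = 0.00288 and 0.0235). That fit called 12112 and 12339 of 18231 genes in IL6KO and WT rats. Il13ra2, a decoy for IL-13, had 0 counts in both IL6KO isolates, which makes it at least 4.96-fold lower than the 1.27 CPM of IL6KO lung at a floor of 3 counts per library. In WT isolates it had 2 counts in all against 70 in lung, a ratio of 0.0635 with an exact 95% interval of 0.00754 to 0.238 that covers counting error only.

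**Figure D1:**
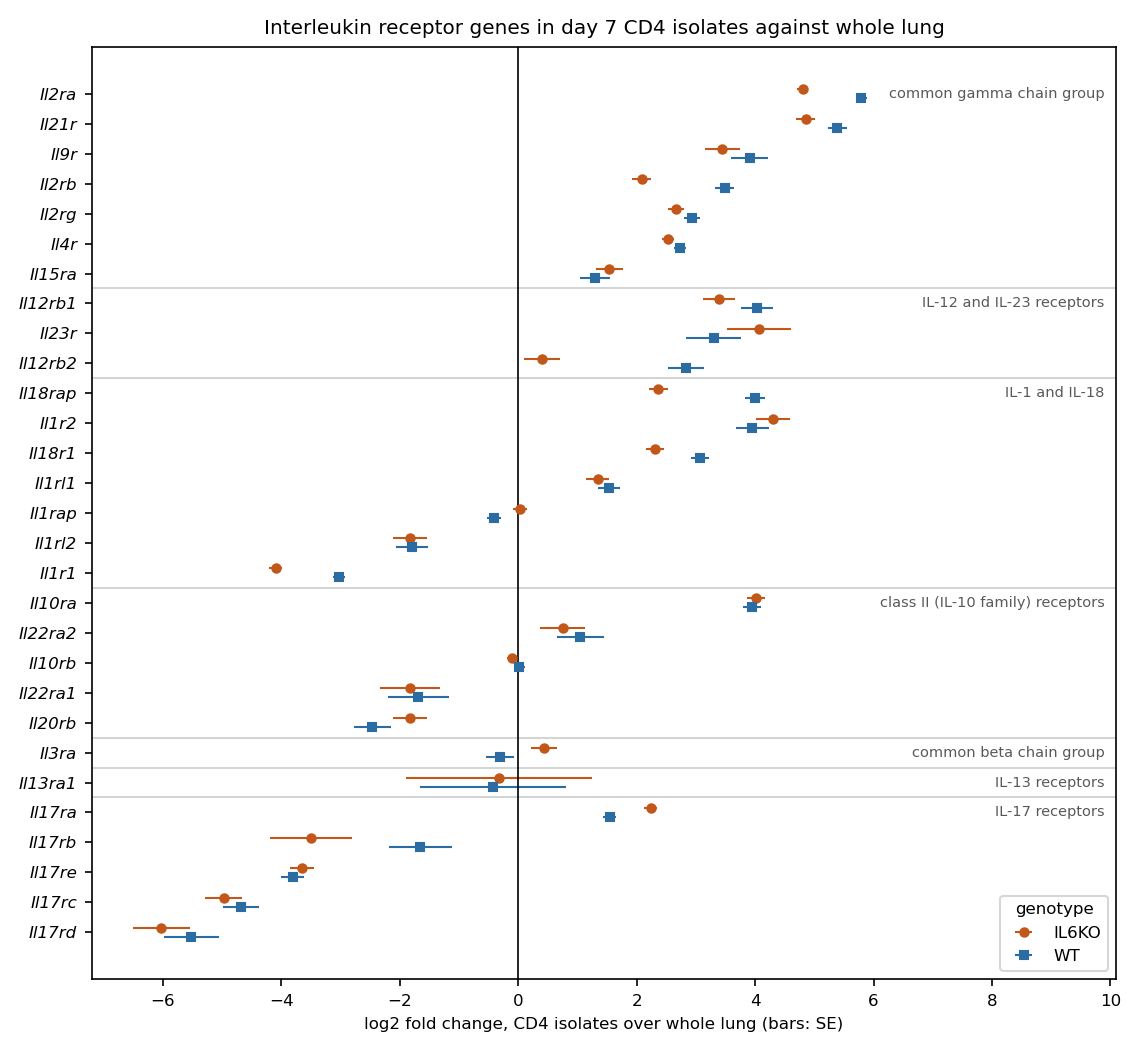
Log2 fold change of 29 receptor genes in day 7 CD4 isolates over whole lung (points, bars are SE), IL6KO rats as circles and WT rats as squares, grouped by receptor family. All gamma chain genes lie right of 0 and 4 of 5 IL-17 receptor genes lie left of it in both genotypes; Il13ra2, with 0 counts in the IL6KO isolates, is not drawn.

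In whole lung at day 7, 2 receptor genes were higher in IL6KO than in WT rats and none was lower: Il2rb and Il12rb2, chains that NK cells and type 1 T cells use. They were 2 of 29 tested members, beside 2.09% of all genes tested (0.933% higher and 1.16% lower). The members' median log2 fold change was 0.04, beside 0.003 over all genes. Il2rb had 39.8, 41.3 and 34.3 CPM in IL6KO lungs, against 14.3, 21.3 and 20.8 CPM in WT lungs. Every IL6KO library was thus above every WT library, with log2 fold change 1.02 (SE 0.148, adjusted p = 0.0119). Il12rb2 had 3.62, 3.12 and 2.91 CPM in IL6KO lungs, against 0.866, 1.53 and 1.56 CPM in WT lungs. The groups did not overlap here either, and the log2 fold change reached 1.27 (SE 0.257, adjusted p = 0.0420). Il15ra, next by p, had 2.74, 2.38 and 2.45 CPM in IL6KO lungs, against 1.33, 1.53 and 1.24 CPM in WT lungs, and was not called (0.87, SE 0.217, adjusted p = 0.0834).

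Both calls were thin. That of Il2rb was lost without IL6KO replicate 2 (adjusted p = 0.0544) and kept without any other library, and that of Il12rb2 was lost without any 1 of the 3 WT libraries, IL6KO replicate 1 or IL6KO replicate 2 (adjusted p = 0.0768 to 0.135). NK and cytotoxic markers moved with them, all 8 of the list above 0 in every library, with a summed 147 to 175 CPM in IL6KO lungs and 56.8 to 79.0 CPM in WT lungs, and 6 of the 8 were called higher; their part in the 2 results was not tested. Of the other members, Il18rap had 10.03, 11.1 and 7.98 CPM in IL6KO lungs, against 4.33, 7.16 and 6.72 CPM in WT lungs, without a call (0.66, adjusted p = 0.161). For 6 members the IL6KO libraries all lay above the WT libraries, and for 3 (Il1r1, Il1rap and Il4r) they all lay below, beside 8.85% and 9.83% of all genes. The remaining 26 members had adjusted p from 0.161 to 0.987.

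The stretch around the gene start is shown for 3 receptor genes called between the genotypes in day 7 lung or isolates. They were picked by hand, because IL-12, IL-2 and IL-18 receptor chains are known targets of STAT, T-box and RUNX factors in T cells. Il2rb and Il18rap, to which that reason applies as well, and Il17ra and Il1r1 were also called and are not shown. RefSeq (build GRCr8) gave a promoter for 27 of the 36 rat members; each runs from 250 bases before the start to 50 after it, 5′ to 3′ on the gene's strand. Capitals mark matches on either strand to TTCNNNGAA (the STAT palindrome), TCACAC (the T-box core) and TGTGGT (the RUNX core).
Il12rb2, chr4:97844888-97845187, minus strand: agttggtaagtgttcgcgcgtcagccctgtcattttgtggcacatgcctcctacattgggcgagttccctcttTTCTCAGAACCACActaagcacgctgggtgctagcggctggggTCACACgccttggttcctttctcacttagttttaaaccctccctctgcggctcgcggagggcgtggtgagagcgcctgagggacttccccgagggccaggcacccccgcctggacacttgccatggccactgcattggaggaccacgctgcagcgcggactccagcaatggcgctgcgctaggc
Il18r1, chr9:50223241-50223540, plus strand: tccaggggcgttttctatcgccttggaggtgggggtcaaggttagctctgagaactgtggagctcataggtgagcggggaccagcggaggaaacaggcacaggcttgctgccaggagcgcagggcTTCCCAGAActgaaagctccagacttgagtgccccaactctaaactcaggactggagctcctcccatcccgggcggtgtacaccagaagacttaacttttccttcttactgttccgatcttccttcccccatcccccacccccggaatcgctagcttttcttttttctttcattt
Il2ra, chr17:71808426-71808725, minus strand: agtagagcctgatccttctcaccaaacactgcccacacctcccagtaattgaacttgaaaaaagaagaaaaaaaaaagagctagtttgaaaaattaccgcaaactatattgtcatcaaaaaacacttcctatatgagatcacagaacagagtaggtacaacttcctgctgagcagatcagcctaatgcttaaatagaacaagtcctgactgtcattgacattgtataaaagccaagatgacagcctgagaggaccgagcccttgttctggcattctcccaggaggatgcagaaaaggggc
Il12rb2 was the only one of the 27 member promoters with all 3 motifs, and the share of all rat promoters with all 3 was not counted. Its STAT match starts 177 bases before the gene start, and its T-box match starts at 134 bases before. The RUNX match shares its first base with the last base of the STAT match. Il18r1 holds a STAT match at 125 bases before the start, and the Il2ra window holds none of the 3. No match was found for Il2rb, Il18rap, Il17ra or Il1r1, the called genes not shown. Which of them have a promoter among the 27 was not recorded. The STAT motif is in 8.87% of 33469 rat promoters and in 3 of the 27 member promoters, the T-box core in 13.7% and 3, and the RUNX core in 17.3% and 5. A match is a description of letters and not a site of binding, and the window without matches says nothing of these factors at Il2ra.

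**Figure D2:**
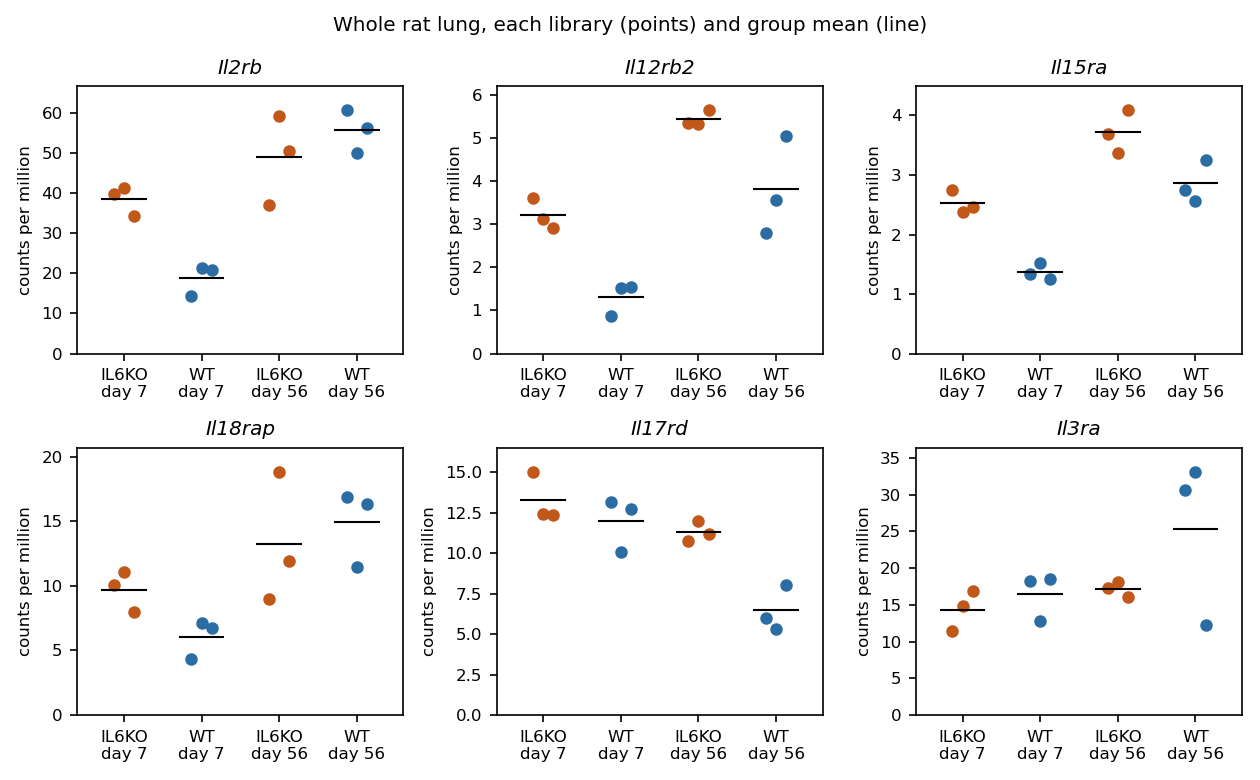
CPM of 6 receptor genes in each whole-lung library (points) with the group mean (line), IL6KO and WT at day 7 and at day 56. Il2rb and Il12rb2 are higher in IL6KO lungs at day 7, and at day 56 the Il2rb libraries of the genotypes overlap; Il3ra shows WT replicate 3 of day 56 far below the other 2 WT libraries.

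At day 56 no receptor gene was called between IL6KO and WT lungs by edgeR, of 30 tested, beside 0.0138% of all genes. Of the members only Il17rd had an unadjusted p under 0.05 in edgeR, beside 1649 of 14475 genes, and DESeq2 called it alone. The members' median log2 fold change was -0.14, beside -0.01 over all genes. Il17rd, a chain that also restrains growth factor receptors, had 10.7, 11.96 and 11.2 CPM in IL6KO lungs, against 6.02, 5.31 and 8.05 CPM in WT lungs. The groups did not overlap (log2 fold change 0.79, SE 0.178, adjusted p = 0.383, and 0.0231 by DESeq2). Without WT replicate 3, the library that stood apart, 1268 of 14689 genes (8.63%) were called in place of 2, and 2 members among them: Il17rd was called higher (0.98, adjusted p = 0.0166) and Il3ra lower (-0.92, adjusted p = 0.0112). Il3ra had 17.2, 18.1 and 16.1 CPM in IL6KO lungs, against 30.7, 33.1 and 12.2 CPM in WT lungs, so its difference rests on whether that library is counted.

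Next by p came Il2rg, with 58.2, 80.5 and 60.8 CPM in IL6KO lungs against 81.9, 84.7 and 75.7 CPM in WT lungs (-0.30, adjusted p = 0.438). Il21r had 7.90, 12.7 and 9.03 CPM in IL6KO lungs against 16.2, 11.9 and 12.3 CPM in WT lungs (-0.47, adjusted p = 0.440). In both, 1 IL6KO library lay within the WT range. Of all 30 members, 3 lay higher in IL6KO without overlap (Il12rb2, Il15ra and Il17rd) and 2 lower (Il17re and Il23r), beside 8.94% and 7.25% of all genes. Il2rb, called at day 7, had 36.9, 59.2 and 50.6 CPM in IL6KO lungs at day 56 and 60.7, 50.1 and 56.3 CPM in WT lungs, with overlapping groups (-0.21, adjusted p = 0.590). Il12rb2 had 5.35, 5.33 and 5.65 CPM in IL6KO lungs, against 2.80, 3.57 and 5.06 CPM in WT lungs (0.51, adjusted p = 0.451).

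The difference between the genotype effects at day 56 and day 7 was tested in 1 fit over the 12 lung libraries. In it edgeR called no member of 29, beside 0.0% of all genes. Before adjustment 6 members had a p under 0.05, beside 1043 of 13865 genes. The smallest was that of Il2rb, at -1.23 (SE 0.238, adjusted p = 0.255). DESeq2 did call it (0.00172), and no other member, and edgeR did so without WT replicate 3 of day 56 (adjusted p = 0.0250). Il17rd followed at 0.65 (adjusted p = 0.582) and Il1rap at 0.49 (adjusted p = 0.620), and both were called without that library (adjusted p = 0.0442 and 0.0344). These are 3 of 29 members, where 4.26% of all genes were called without it. Il1rap had 19.5, 18.8 and 19.2 CPM in IL6KO lungs at day 56 against 12.6, 14.98 and 19.6 CPM in WT lungs, and 17.2, 19.5 and 16.3 CPM against 19.5, 21.8 and 19.7 CPM at day 7.

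Between day 56 and day 7 in IL6KO lungs edgeR called Il13ra1 alone. It was 1 of 29 members tested, beside 8.32% of all genes (3.4% higher and 4.92% lower). Before adjustment 10 members had a p under 0.05, beside 3060 of 13865 genes. Il13ra1 stands on different rows of the 2 tables, and joined by neighbouring rows it was not called (0.05, adjusted p = 0.986). The days come from separate tables, so day and table cannot be told apart. The members' median log2 fold change was 0.22, beside 0.03 over all genes. Il2rb had 36.9, 59.2 and 50.6 CPM at day 56 and 39.8, 41.3 and 34.3 CPM at day 7 in IL6KO lungs (0.30, adjusted p = 0.331). Il12rb2 had 5.35, 5.33 and 5.65 CPM against 3.62, 3.12 and 2.91 CPM (0.72, adjusted p = 0.0897), and Il4r 210, 225 and 328 CPM against 158, 174 and 186 CPM (0.52, adjusted p = 0.0909). Il4r was called by DESeq2 (adjusted p = 0.0373), and Il4r and Il12rb2 without WT replicate 3 of day 56 (0.0328 and 0.0408), which enters the shared estimate of spread and whose absence left 11.9% of all genes called.

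In WT lungs 10 of 29 members differed between day 56 and day 7, 9 higher and 1 lower, beside 14.8% of all genes tested (6.72% higher and 8.05% lower). The members' median log2 fold change was 0.31, beside 0.01 over all genes. One of the 9 was Il13ra1, and with its rows joined 9 members were called in all. After Il13ra1, Il2rb had the smallest p, with 60.7, 50.1 and 56.3 CPM at day 56, against 14.3, 21.3 and 20.8 CPM at day 7 (1.53, SE 0.172, adjusted p = 6.95e-05). Il12rb2 had 2.80, 3.57 and 5.06 CPM at day 56 and 0.866, 1.53 and 1.56 CPM at day 7 (1.47, adjusted p = 0.00244). Neither gene overlapped between the days, and Il15ra, Il18rap, Il18r1 and Il21r did not either, though the share of all genes without overlap was not counted here. Other chains of the gamma chain group were not called, Il2rg at -0.05 and Il2ra at 0.05 (adjusted p = 0.856 and 0.889). Il15ra had 2.75, 2.57 and 3.26 CPM at day 56 and 1.33, 1.53 and 1.24 CPM at day 7 (1.02, adjusted p = 0.00370). Il18rap had 16.9, 11.5 and 16.4 CPM against 4.33, 7.16 and 6.72 CPM (1.25, adjusted p = 0.00792). Its partner Il18r1 had 12.8, 14.98 and 16.6 CPM against 9.86, 7.38 and 8.96 CPM (0.74, adjusted p = 0.0104). Il21r had 16.2, 11.9 and 12.3 CPM against 5.60, 7.46 and 7.59 CPM (0.94, adjusted p = 0.00977).

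Il17rd was the only member lower at day 56, with 6.02, 5.31 and 8.05 CPM against 13.1, 10.05 and 12.8 CPM at day 7 (-0.93, adjusted p = 0.00247). Il22ra2 had 7.63, 2.96 and 2.15 CPM at day 56 and 1.40, 1.02 and 1.12 CPM at day 7 (1.84, adjusted p = 0.0133), with 1 library far above the others. Il4r had 329, 322 and 225 CPM against 188, 199 and 198 CPM (0.55, adjusted p = 0.0475). The Il4r call was lost without any 1 of 8 of the 12 libraries and with the replicate block (adjusted p = 0.0594 to 0.159), Il22ra2's without day 7 WT replicate 2 or 3 (0.0621 and 0.0506) and Il18r1's without day 7 WT replicate 2 (0.0556). Without WT replicate 3 of day 56, 15 members were called, beside 26.1% of all genes. NK and cytotoxic markers were at 207 to 255 CPM in WT lungs at day 56 against 56.8 to 79.0 CPM at day 7, and all 8 were called higher. So were 4 of 5 B cell markers, both CD8 markers tested, 1 of 5 T cell markers (Cd247) and 1 of 5 epithelial markers (Scgb1a1). Called lower were 2 of 5 fibroblast and smooth muscle markers (Col1a1 and Acta2), 1 of 5 epithelial markers (Cdh1) and 1 of 4 endothelial markers (Cdh5). The part of these cells in the members' differences was not tested. That WT lungs held more calls than IL6KO lungs does not show that the genotypes differ over time: the test of that is the interaction above, and the comparisons share libraries.

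The name Il13ra1 does not stand for the same row in every rat table. In the day 7 lung and CD4 tables it lies between Dock11 and Zcchc12, with 5 to 35 counts in lung and 0 to 18 in the isolates. In the day 56 table it lies between Atp13a4 and Atp13a5, with 2108 to 3089 counts. Between the isolates and day 7 lung, whose tables place the name alike, Il13ra1 was called in neither genotype. The row named LOC100360218 does the reverse, with 2049 to 3438 counts in day 7 lung, 440 to 971 in the isolates and 0 to 21 in day 56 lung. The other 35 rat members hold the same row in all 3 tables. Of 20230 symbols shared by the lung tables of the days, 19704 hold the same row. The shares of all genes between the days and in the interaction join symbols by name, and their other moved rows were not checked. In CPM, the row named Il13ra1 had 136, 142 and 144 in IL6KO lungs and 137, 135 and 146 in WT lungs at day 56, against 0.548, 0.306 and 0.614 in IL6KO lungs and 1.53, 0.212 and 2.18 in WT lungs at day 7. Joined by name, Il13ra1 rose by log2 8.08 in IL6KO and 6.83 in WT lungs between the days; joined by neighbouring rows it differed by 0.05 and by -2.17 (adjusted p = 0.986 and 0.184). No level of Il13ra1, a receptor chain for IL-13, is read from the rat tables here.

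**Figure D3:**
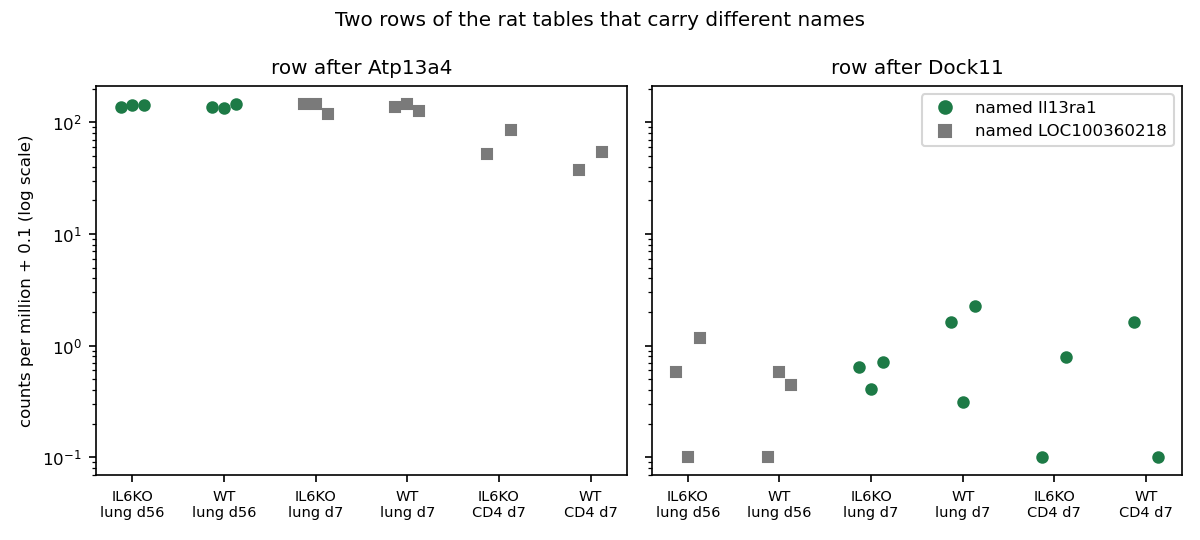
CPM + 0.1 (log scale) in each rat library for the row after Atp13a4 (left) and the row after Dock11 (right), by the name the row carries. The left row is above 30 CPM in every library, named Il13ra1 at day 56 and LOC100360218 at day 7, and the right row is below 3 CPM under either name.

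In the day 7 CD4 isolates 5 of 24 tested members differed between IL6KO and WT rats, beside 6.4% of all genes tested (3.5% higher and 2.91% lower). Both IL-18 receptor chains, Il2ra and Il1r1 were lower in IL6KO isolates, and Il17ra was higher. The members' median log2 fold change was -0.26, beside -0.004 over all genes. Il18rap, the signalling chain of the IL-18 receptor, had 43.8 and 43.4 CPM in IL6KO isolates, against 78.0 and 81.4 CPM in WT isolates (-0.90, SE 0.0823, adjusted p = 0.00337). Il18r1, its binding chain, had 42.6 and 42.0 CPM in IL6KO isolates, against 56.6 and 61.2 CPM in WT isolates (-0.51, SE 0.0887, adjusted p = 0.0207). Replicates lay close together in both, and the genotypes were well apart.

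Il2ra had 95.8 and 106 CPM in IL6KO isolates, against 156 and 169 CPM in WT isolates (-0.72, SE 0.0935, adjusted p = 0.00888). Il1r1 had 5.71 and 6.45 CPM in IL6KO isolates, against 13.5 and 12.5 CPM in WT isolates (-1.13, SE 0.181, adjusted p = 0.0161). Il17ra had 778 and 622 CPM in IL6KO isolates, against 352 and 406 CPM in WT isolates (0.86, SE 0.121, adjusted p = 0.0137). None of these groups overlapped, and neither did those of 10 further members, 5 higher and 5 lower. With 2 libraries a group that is common: 30.1% of all genes tested lay higher and 25.2% lower without overlap.

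**Figure D4:**
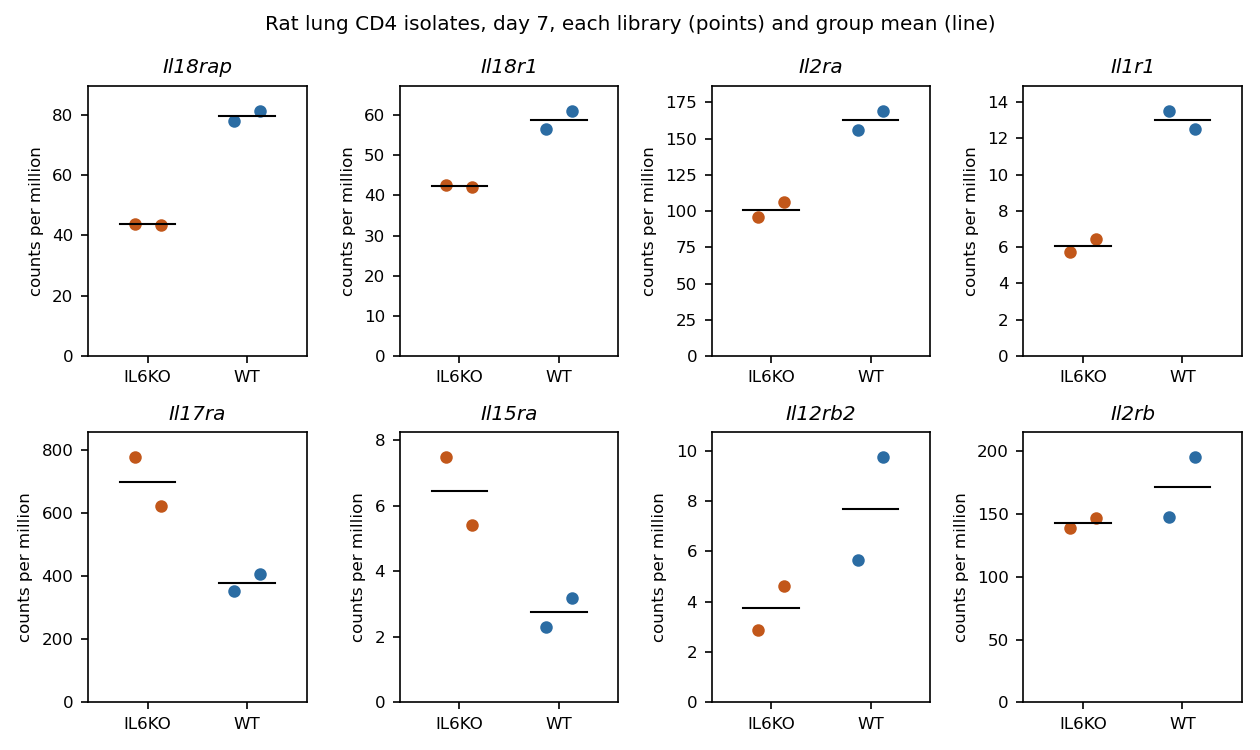
CPM of 8 receptor genes in each day 7 CD4 isolate (points) with the group mean (line), IL6KO left and WT right. Il18rap, Il18r1, Il2ra and Il1r1 are lower and Il17ra is higher in IL6KO isolates; Il15ra, Il12rb2 and Il2rb do not overlap between the genotypes but were not called.

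Below the threshold, Il15ra had 7.48 and 5.40 CPM in IL6KO isolates, against 2.31 and 3.17 CPM in WT isolates (1.197, adjusted p = 0.0541). Il10ra had 217 and 211 CPM against 171 and 163 CPM (0.33, adjusted p = 0.0607), and Il12rb2 2.86 and 4.62 CPM against 5.66 and 9.74 CPM (-1.07, adjusted p = 0.124). The replicate number as a block raised the count to 7 by adding Il12rb2 and Il15ra, beside 8.85% of all genes, but no label pairs these rats by number. Il15ra was also the only one of 23 members tested in all 3 rat genotype comparisons whose IL6KO libraries lay above the WT libraries in each, beside 0.612% of 11267 genes, and none lay below in each, beside 0.524%. At day 56 it had 3.68, 3.38 and 4.09 CPM in IL6KO lungs, against 2.75, 2.57 and 3.26 CPM in WT lungs (0.37, adjusted p = 0.477), so it was called in none of the 3; it was singled out after its values were seen. Each group of isolates holds 2 libraries, and without either WT library Il18rap was the only call left (adjusted p = 0.0433 and 0.0371, beside 0.606% and 0.914% of all genes called), the other 4 having adjusted p from 0.0747 to 0.130.

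The makeup of the isolates also differed between the genotypes. CD8 markers (Cd8a and Cd8b) summed to 14.0 and 17.4 CPM in IL6KO isolates, against 107 and 138 CPM in WT isolates, and both were called lower. Macrophage markers summed to 2982 and 3566 CPM against 1882 and 2135 CPM, with Csf1r, Adgre1 and Cd68 called higher, and epithelial markers to 613 and 708 CPM against 1932 and 2575 CPM, with 4 of 5 called lower. The T cell list summed to 1999 and 2175 CPM against 2274 and 2306 CPM, with 3 of 6 (Cd247, Cd3e and Cd3d) called lower, while Cd4 itself had 782 and 741 CPM in IL6KO isolates, against 598 and 642 CPM in WT isolates. Markers of regulatory T cells summed to 334 and 346 CPM against 421 and 427 CPM, with Ctla4 alone called lower (166 and 186 CPM against 271 and 251 CPM), and Foxp3 had 138 and 131 CPM against 126 and 146 CPM. Acta2 and Myh11, 2 of 5 fibroblast and smooth muscle markers, were also called lower, as was Cdh5, 1 of 4 endothelial markers. Nkg7 was called lower too, but alone of 8 NK and cytotoxic markers. Summed, that list overlapped between the genotypes, at 298 and 190 CPM in IL6KO isolates, against 226 and 238 CPM in WT isolates. B cell markers summed to 58.3 and 54.7 CPM in IL6KO isolates, against 32.99 and 34.7 CPM in WT isolates, with 0 of 5 called. Of the neutrophil markers 0 of 5 were called (391 and 494 CPM against 549 and 1211 CPM in sum). Il17ra is also expressed by myeloid cells, the IL-18 receptor also by CD8 T cells and NK cells, Il2ra also by regulatory T cells, and Il1r1 also by epithelium and stroma. The part of these cells in the 5 results was not tested.

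For 6 receptor genes the effect of genotype was not the same in the isolates as in whole lung. The genotype effect in the isolates minus that in lung was fitted over the 10 day 7 rat libraries, a comparison added after the data were seen, and it called 6 of 30 members, 5 lower and 1 higher, beside 6.42% of all genes (4.55% lower and 1.88% higher). The members' median was -0.24, beside -0.11 over all genes. Il12rb2 differed most, by -2.42 (SE 0.438, adjusted p = 0.00896): higher in IL6KO lungs, and in the isolates the IL6KO libraries both lay below the WT libraries. Il18rap differed by -1.63 (SE 0.239, adjusted p = 0.00262), Il2rb by -1.40 (SE 0.226, adjusted p = 0.00517) and Il2ra by -0.99 (SE 0.137, adjusted p = 0.00196). For these 4 genes, of 23 members tested in both, every IL6KO library lay above every WT library in lung and below them in the isolates, beside 2.24% of 11986 genes. Il1rap, 1 of 23, lay the other way round, beside 2.27%. In the isolates Il2rb had 139 and 146 CPM in IL6KO rats, against 148 and 195 CPM in WT rats. Il2ra in lung had 4.22, 4.22 and 3.94 CPM in IL6KO rats, against 3.53, 3.86 and 3.42 CPM in WT rats. Il1r1 differed by -1.08 (SE 0.145, adjusted p = 0.00157). In lung it had 120, 117 and 120 CPM in IL6KO rats, against 132, 139 and 121 CPM in WT rats, so its IL6KO libraries lay below the WT libraries in both.

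Il17ra differed by 0.69 (SE 0.157, adjusted p = 0.0250), higher in IL6KO isolates and with 163, 167 and 181 CPM in IL6KO lungs, against 150, 161 and 171 CPM in WT lungs. That call was lost without the first WT isolate, the first IL6KO isolate, WT lung 3 or IL6KO lung 1 (adjusted p = 0.0501 to 0.119). Leaving out 1 library at a time called 5 to 8 members. The markers of other cells named above moved in the same 2 comparisons, NK and cytotoxic in lung and CD8, macrophage and epithelial in the isolates, and their part was not tested.

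**Figure D5:**
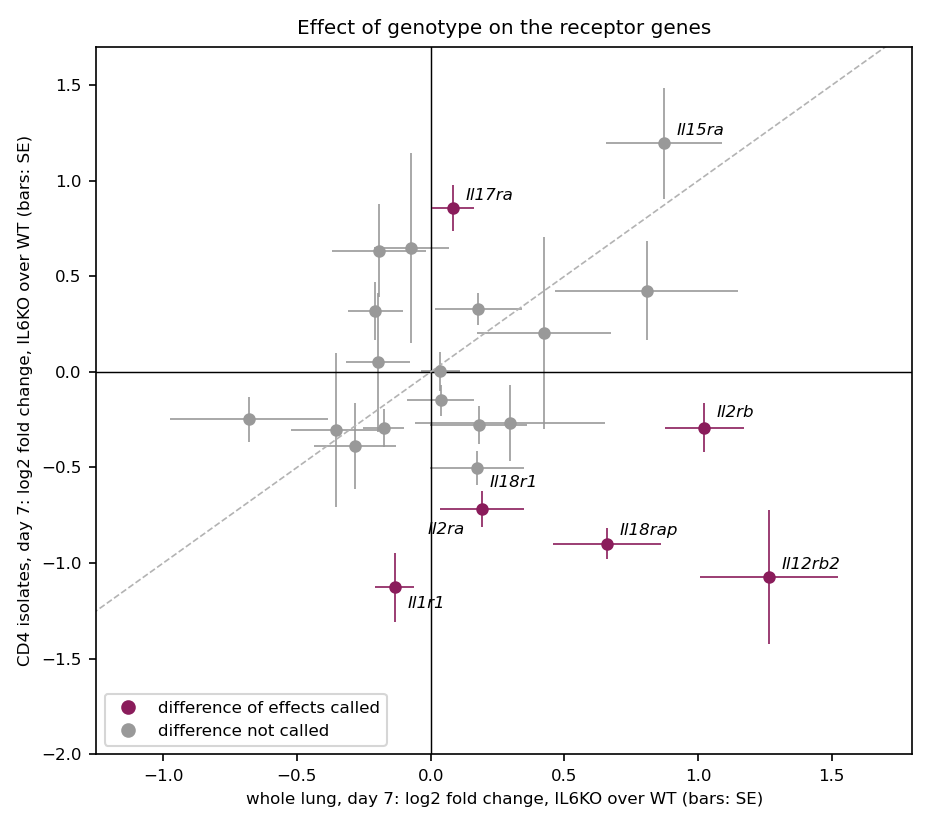
Log2 fold change of IL6KO over WT in whole lung at day 7 (x axis) and in day 7 CD4 isolates (y axis) for receptor genes tested in both, with SE bars and a dashed line of equal effects. The 6 genes whose effects differ by the test are dark: Il2rb, Il12rb2, Il18rap and Il2ra lie right of 0 and below it, Il1r1 lies left and below, and Il17ra lies above.

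Some of these genes are neighbours in the rat genome. By the GRCr8 RefSeq gene table, Il1r1, Il1rl2, Il1rl1, Il18r1 and Il18rap follow each other on chromosome 9 with no protein-coding gene between them, and so do Il15ra and Il2ra on chromosome 17, Il12rb2 and Il23r on chromosome 4, Il17re and Il17rc on chromosome 4, and Il4r and Il21r on chromosome 1. Neighbours did not always move as 1 block. In WT isolates against lung, Il1r1 and Il1rl2 at one end of the chromosome 9 row were lower (-3.02 and -1.79), and Il1rl1, Il18r1 and Il18rap at the other were higher (1.53, 3.07 and 4.001). Between the genotypes in the isolates, all genes of the chromosome 9 row lay below 0. Il1r1, Il18r1 and Il18rap were called lower, and Il1rl2 (-0.30) and Il1rl1 (-0.39) were not called. Il15ra (1.197, not called) and Il2ra (-0.72) lay on opposite sides of 0.

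In spleen, levels can be compared between genes because GENCODE (M21, build GRCm38) gives their exon lengths. On the scale of CPM per kilobase of exon, Il2rg (chrX:101264378-101268255, minus strand) led with 783 ± 88.5 in tdTomato-positive cells and 707 ± 55.6 in tdTomato-negative cells (SD, n = 3 each). Il21r (chr7:125603429-125633570, plus strand) followed at 106 ± 15.8 and 106 ± 12.3, then its neighbour Il4ra (chr7:125552120-125579474, plus strand), the mouse symbol for Il4r, at 72.1 ± 5.74 and 66.4 ± 7.40. Il17ra (46.2 ± 3.58 in the positive fraction) and Il2rb (45.8 ± 8.93) did not differ beyond their spread, and Il10rb stood at 36.4 ± 1.68. Il10ra, Il18r1, Il2ra, Il18rap, Il1rl2 and Il12rb1 lay between 10.2 and 4.26, and the next 10 members, Il1r2, Il15ra, Il3ra, Il17rb, Il1rap, Il9r, Il12rb2, Il20rb, Il13ra1 and Il23r, between 2.97 and 0.326. These are levels in the positive fraction, from Il10rb on, where Il1r1, Il1rl1, Il22ra2 and Il31ra lay between 0.0977 and 0.296; Il22ra2 and Il31ra had 0 counts in the negative fraction. The partner chains Il17rc, Il17rd and Il17re were at 0.0819 or less in the positive and 0.139 or less in the negative fraction, beside Il17ra at 46.2 and 44.8. Il13ra2 and Il22ra1 had 0 counts in all 6 libraries.

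No receptor gene was called by edgeR or DESeq2 between tdTomato-positive and tdTomato-negative cells, of 22 tested and beside 0.00902% of all genes. These fits did not pair the fractions by mouse, and with the mouse as a block edgeR called no member either. In the unpaired edgeR fit 1 receptor gene had an unadjusted p under 0.05, beside 395 of 11083 genes. The members' median log2 fold change was 0.10, beside -0.01 over all genes. That 1 gene was Il13ra1 (chrX:36112110-36171259, plus strand), with 1.67, 1.95 and 2.02 CPM in positive cells, against 0, 0.188 and 0 CPM in negative cells. Its counts summed to 59 in positive and 2 in negative cells, a ratio of 30.1 with an exact 95% interval of 7.97 to 254 for counting error only (p = 0.00127, adjusted p = 0.998 in edgeR's fit over all genes, 0.776 with the mouse as a block). Macrophage markers, all 7 above 0, summed to 55.4 to 69.7 CPM in positive cells and 24.6 to 41.2 CPM in negative cells, and B cell markers to 75.0 to 84.2 CPM and 32.4 to 59.2 CPM; their part in the Il13ra1 counts was not tested.

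Il1r2 (chr1:40074079-40125231, plus strand) had 6.50, 6.75 and 3.76 CPM in positive cells, against 0.879, 4.23 and 1.99 CPM in negative cells. Il17rb (chr14:29996135-30008896, minus strand) had 4.83, 6.29 and 6.05 CPM in positive cells, against 1.32, 4.98 and 4.22 CPM in negative cells. Both overlapped between the fractions across mice while being higher in the positive fraction of each mouse, and neither was called (1.23 and 0.68, adjusted p = 0.998 each). These values and that of Il2ra below come from the fit without the mouse as a block, and with that block no member was called. Il18rap had 14.7, 86.3 and 14.8 CPM in positive cells and 8.35, 27.6 and 12.7 CPM in negative cells, the 86.3 being the library of mouse 2 that stood apart. NK and cytotoxic markers were also high in mouse 2, at 677 CPM in positive and 418 CPM in negative cells, against 256 to 283 CPM in the other 4 libraries; their part was not tested. Of the 22 members, Il13ra1 alone lay higher and Il2ra alone lower in the positive fraction without overlap, beside 4.86% and 3.68% of all genes. Il2ra had 42.5, 38.3 and 43.0 CPM in positive cells and 46.4, 45.2 and 46.6 CPM in negative cells (-0.19, adjusted p = 0.998). Il31ra, a receptor chain for the itch cytokine IL-31, had 0.0833, 1.03 and 0.550 CPM in positive cells and 0 in all 3 negative libraries, below the filter for testing.

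Of 31 ligand genes listed, 11, 10 and 11 could be tested in day 7 lung, day 56 lung and the isolates, and 5 in spleen, and none was called in any, beside shares of all genes of at most 6.4%. Il33 alone of 15 ligands tested differed in its genotype effect between isolates and lung (-1.56, adjusted p = 0.0296), beside 6.42% of all genes. Il33 had 2.02 and 4.01 CPM in IL6KO and 7.46 and 6.03 CPM in WT isolates. Of 16 signal carriers, 15 or 16 could be tested in each, and 1 was called. That was Irak3, 1 of 15 tested in the isolates, a share near the 6.4% of all genes. Irak3, which restrains IL-1 and IL-18 signalling, had 119 and 115 CPM in IL6KO isolates, against 73.8 and 82.8 CPM in WT isolates (0.55, adjusted p = 0.0162). The inhibitors Il18bp and Sigirr were not called in any of the 4 comparisons. Over time, Il17b, a ligand of Il17rb, was lower at day 56 than at day 7 in IL6KO and WT lungs (-1.43 and -1.71, adjusted p = 0.0186 and 0.00221). Of 12 ligands tested it alone was called, beside 8.32% of all genes in IL6KO and 14.8% in WT lungs. Traf3ip2 and Irak2, 2 of 15 signal carriers tested, were higher at day 56 in both genotypes (log2 0.51 to 0.68), beside the same shares of all genes.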

How the data were processed

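The authors deposited raw counts per gene in 4 tables, 1 column per library, as the values show: whole numbers with a different total in each column. Aligner, counter and strand: not given in the sources used here. The submitters' processing notes name GRCm38 for all samples, the rat ones included. All 22 columns matched a sample by name and 0 did not.

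CPM printed are counts over the library total and are not scaled by TMM, whereas fold changes are, so they can differ. Between isolates and lung, Il10rb in WT rats had means of 39.9 and 48.8 CPM and a log2 fold change of 0.02. Counts were filtered with filterByExpr, scaled by TMM and tested with edgeR 4.0.16 in R 4.3.3 (glmQLFit, robust, and glmQLFTest) within each pair of groups, or in 1 fit for contrasts across tables. SE is that of the log2 fold change, and adjusted p-values run over all genes tested. Floors are 3 counts. Alternatives were RLE size factors, no filter, a mean of at least 1 CPM, DESeq2 1.42.0, a replicate block and leaving out each library. The fits were tested on simulated data.

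The members, marker lists and pathway lists were chosen with earlier results of these data known. Every described member is named, with values per library for those called or, under 3 calls, the 3 with the smallest p; for isolates against lung, where most were called, ranges over libraries or fold changes stand in their place. Fractions of the same number in spleen come from the same mouse by their labels (correlation of deviations 0.030, 0.122 and 0.116). No label pairs rat libraries by number. Labels do not say that rat libraries come from separate animals, so p-values measure the spread between libraries. None was a duplicate. Mouse positions count from 1.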

Additional observations from a re-analysis of the deposited data

Results flagged for a closer look

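Every IL6KO library of Il12rb2, Il18rap, Il2rb and Il2ra lay above the WT libraries in whole lung at day 7 and below them in the CD4 isolates. For Il12rb2 the log2 fold changes were 1.27 in lung and -1.07 in the isolates, for Il18rap 0.66 and -0.90, for Il2rb 1.02 and -0.29, and for Il2ra 0.19 and -0.72. They are 4 of 23 members tested in both, beside 2.24% of all genes, and were singled out after their values were seen. Il1rap, 1 of 23, went the opposite way, beside 2.27% of all genes, at -0.21 in lung and 0.32 in the isolates, and the test of its difference did not pass (adjusted p = 0.164 in edgeR's quasi-likelihood fit).

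By the test of the difference itself, the genotype effect in the isolates minus that in lung was -2.42 for Il12rb2, -1.63 for Il18rap, -1.40 for Il2rb, -1.08 for Il1r1, -0.99 for Il2ra and 0.69 for Il17ra. The first 5 are lower and Il17ra is higher in the isolates relative to lung.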

How the results depend on the processing

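Over the members named in each comparison and the alternatives run, 1233 results kept their direction and side of the threshold, 39 were no longer called, 9 became called and 1 reversed: Il13ra1 in WT lung between the days, -2.17 with rows joined by their neighbours. Over all tested members and alternatives 47 calls were gained. That join left 0 members called between the days in IL6KO lung. DESeq2 called 1 member at day 56, 1 in the interaction and 2 between the days in IL6KO lung. Over all genes, DESeq2 called 173 against 2 by edgeR at day 56, 565 against 300 at day 7 and 48 against 0 in the interaction. Between the days in IL6KO lung it called 1590 against 1153. At 0.25 CPM 32 members would be described and at 1 CPM 30. Leaving out 1 library at a time gave 0 to 2 members called between the genotypes in day 7 lung, 0 to 2 at day 56, 1 to 6 in the isolates, 0 in spleen, 0 to 3 in the interaction, 1 to 3 between the days in IL6KO and 7 to 15 in WT lung, 24 to 26 for isolates against lung in IL6KO and 24 to 28 in WT rats, and 5 to 8 for the difference of genotype effects. Where this left 1 library in a group, that library was taken to vary like the other group. Calls over all genes moved as well when a lung library was left out. They ran from 94 to 372 in day 7 lung, 1 to 1268 at day 56 and 0 to 597 in the interaction. Between the days they ran from 704 to 1666 in IL6KO and 1235 to 3656 in WT lung.

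With the replicate number as a block, 2 members were called between the genotypes in day 7 lung, 0 at day 56, 7 in the isolates, 0 in spleen, 0 in the interaction, 1 and 9 between the days in IL6KO and WT lung, 24 and 26 for isolates against lung in IL6KO and WT rats, and 6 for the difference of effects. Same-numbered rat lung libraries correlated in their deviations at 0.056, 0.078 and 0.256 at day 7 and at -0.161, -0.075 and -0.028 at day 56. Different-numbered ones at day 7 ran from -0.165 to 0.111. No label pairs the rats by number, and whether same-numbered day 7 lungs share a batch was not tested. Over all genes the block called 543 of 14368 in day 7 lung, against 300 without it. It called 0 of 14475 at day 56, 1084 of 12243 in the isolates, 3 of 11083 in spleen and 0 of 13865 in the interaction. Between the days it called 960 and 1696 of 13865 in IL6KO and WT lung. For isolates against lung it called 11810 and 12107 of 14772 in IL6KO and WT rats, and 1175 of 14772 for the difference of effects. Members under about 1 CPM are limited by counts, with a floor of 0.127 to 0.343 CPM.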
